A study of Mus musculus with 41 samples.

Results

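The acute response to an empty P nanomesh, a degradable electrospun mesh whose nanofibers are a copolymer of lactic acid and caprolactone, was examined 1 week after implantation. The 6 mice labelled P nano-mesh at 1 week and the 7 mice labelled sham at 1 week were taken by their labels, 13 of 41 mice in all. Every mouse was a female of the NSG strain, the tissue was labelled skin, and ages are not given in the sources used here. P mice carried mesh without cells in pockets between the abdominal skin and the fascia, on both sides of the midline. The labels call the controls sham, and the sources used here do not describe what the sham operation involved. All 54 target genes gave a Ct (threshold cycle of the qPCR) in each of the 13 mice, with 1 value per gene and mouse. The level of a gene is given throughout as the 18S Ct minus the gene Ct of the same mouse, a log2 value that is higher where there is more transcript relative to 18S ribosomal RNA. Sham mouse 2269 stood apart from the other sham mice in many genes. With 18S as the reference, calls that change without it are given both ways. Calls against a second reference that were made without it are listed together.

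An implanted mesh is met by the foreign body response. Injured tissue and resident macrophages release interleukins and chemokines, neutrophils and monocytes follow these signals from the blood, and macrophages then take up a long residence on the material while fibroblasts lay down collagen and endothelial cells form vessels. NSG mice lack T, B and NK cells and their macrophages and dendritic cells are defective, so the response measured here is that of an innate system without lymphocytes. The tissue was measured in bulk, and fewer cells of a type cannot be told apart from less RNA per cell.

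Several of the genes that follow are known targets of the transcription factor NF-κB, which binds the κB motif in their promoters. The stretches below hold matches to the κB consensus in the 250 bases before a RefSeq start. Stretches were printed only for a chosen set, some inflammatory genes and the genes called lower in P. They belong to some of the neutrophil chemokine, interferon-inducible chemokine and cytokine genes of the panel, and to *Pdgfa* and *Vegfa*, which were called lower in P. They come from the RefSeq annotation of GRCm38.p6, are written 5′ to 3′ on the strand of the gene, and have the match on either strand in capitals. *Cxcl1* lies at chr5:90891144-90891213 (+), *Cxcl2* at chr5:90903772-90903841 (+), *Cxcl10* at chr5:92348953-92349023 (-), *Il6* at chr5:30013040-30013109 (+), *Pdgfa* at chr5:138994954-138995023 (-) and *Vegfa* at chr17:46032456-46032525 (-).
Cxcl1: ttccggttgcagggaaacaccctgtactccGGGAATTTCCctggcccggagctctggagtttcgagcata
Cxcl2: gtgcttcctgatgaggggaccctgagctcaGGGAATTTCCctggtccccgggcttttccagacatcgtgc
Cxcl10: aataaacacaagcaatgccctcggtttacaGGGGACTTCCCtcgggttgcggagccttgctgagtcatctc
Il6: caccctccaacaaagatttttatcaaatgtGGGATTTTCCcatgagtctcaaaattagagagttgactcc
Pdgfa: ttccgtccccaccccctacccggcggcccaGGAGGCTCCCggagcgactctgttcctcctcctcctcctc
Vegfa: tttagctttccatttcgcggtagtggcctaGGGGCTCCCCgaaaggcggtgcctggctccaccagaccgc
*Cxcl1* and *Cxcl2* carried the same match, and the 11 capitals of *Cxcl10* hold 2 overlapping matches. *Pdgfa* and *Vegfa* each have 2 starts in the table, and the match lies before 1 of them. Of the 32 panel genes with a promoter in the table, 7 held a match, the seventh being *Tgfb1*, which was outside the chosen set and is not printed. *Il1b*, *Tnfa*, *Ccl12*, *Ccl3* and *Cxcl9* were searched and held no match, and *Ccl7* had no promoter in the table. Among all 27025 genes of the table, 1533 (5.67%) held one before at least 1 start, and among its 32851 promoters 1643 (5.00%) did. A match describes letters and is neither a bound site nor a cause of any value below.

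No gene was called higher in P than in sham, and 3 genes were called lower, all of them growth factors. *Vegfa* (vascular endothelial growth factor A, the main driver of new vessels), *Pdgfa* (a platelet-derived growth factor chain that attracts and expands mesenchymal cells) and *Tgfb3* (a TGF-β ligand) passed a Mann-Whitney U test, two-sided and with every rank sum enumerated, at the study's threshold of 0.0513. These are 5.56% of the 54 genes tested, and the share called higher was 0%. A threshold of 0.0513 passes about this share of genes, both directions together, when no gene differs. After Benjamini-Hochberg adjustment no p was below 0.05 (smallest 0.441), while 2 genes had an unadjusted p below 0.05, and limma on the same values called 0 of the 54 (0 with an unadjusted p below 0.05, smallest adjusted p 0.781). The smallest p that 6 against 7 mice allow in this exact test is 0.00117. Over all 54 genes the median shift (Hodges-Lehmann estimate, P minus sham, with exact intervals of 96.5% coverage below) was -0.10, with 26 genes above 0 and 28 below. Each exact p is the share of all divisions of these mice into groups of 6 and 7 that separate the ranks at least as far.

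**Figure D1:**
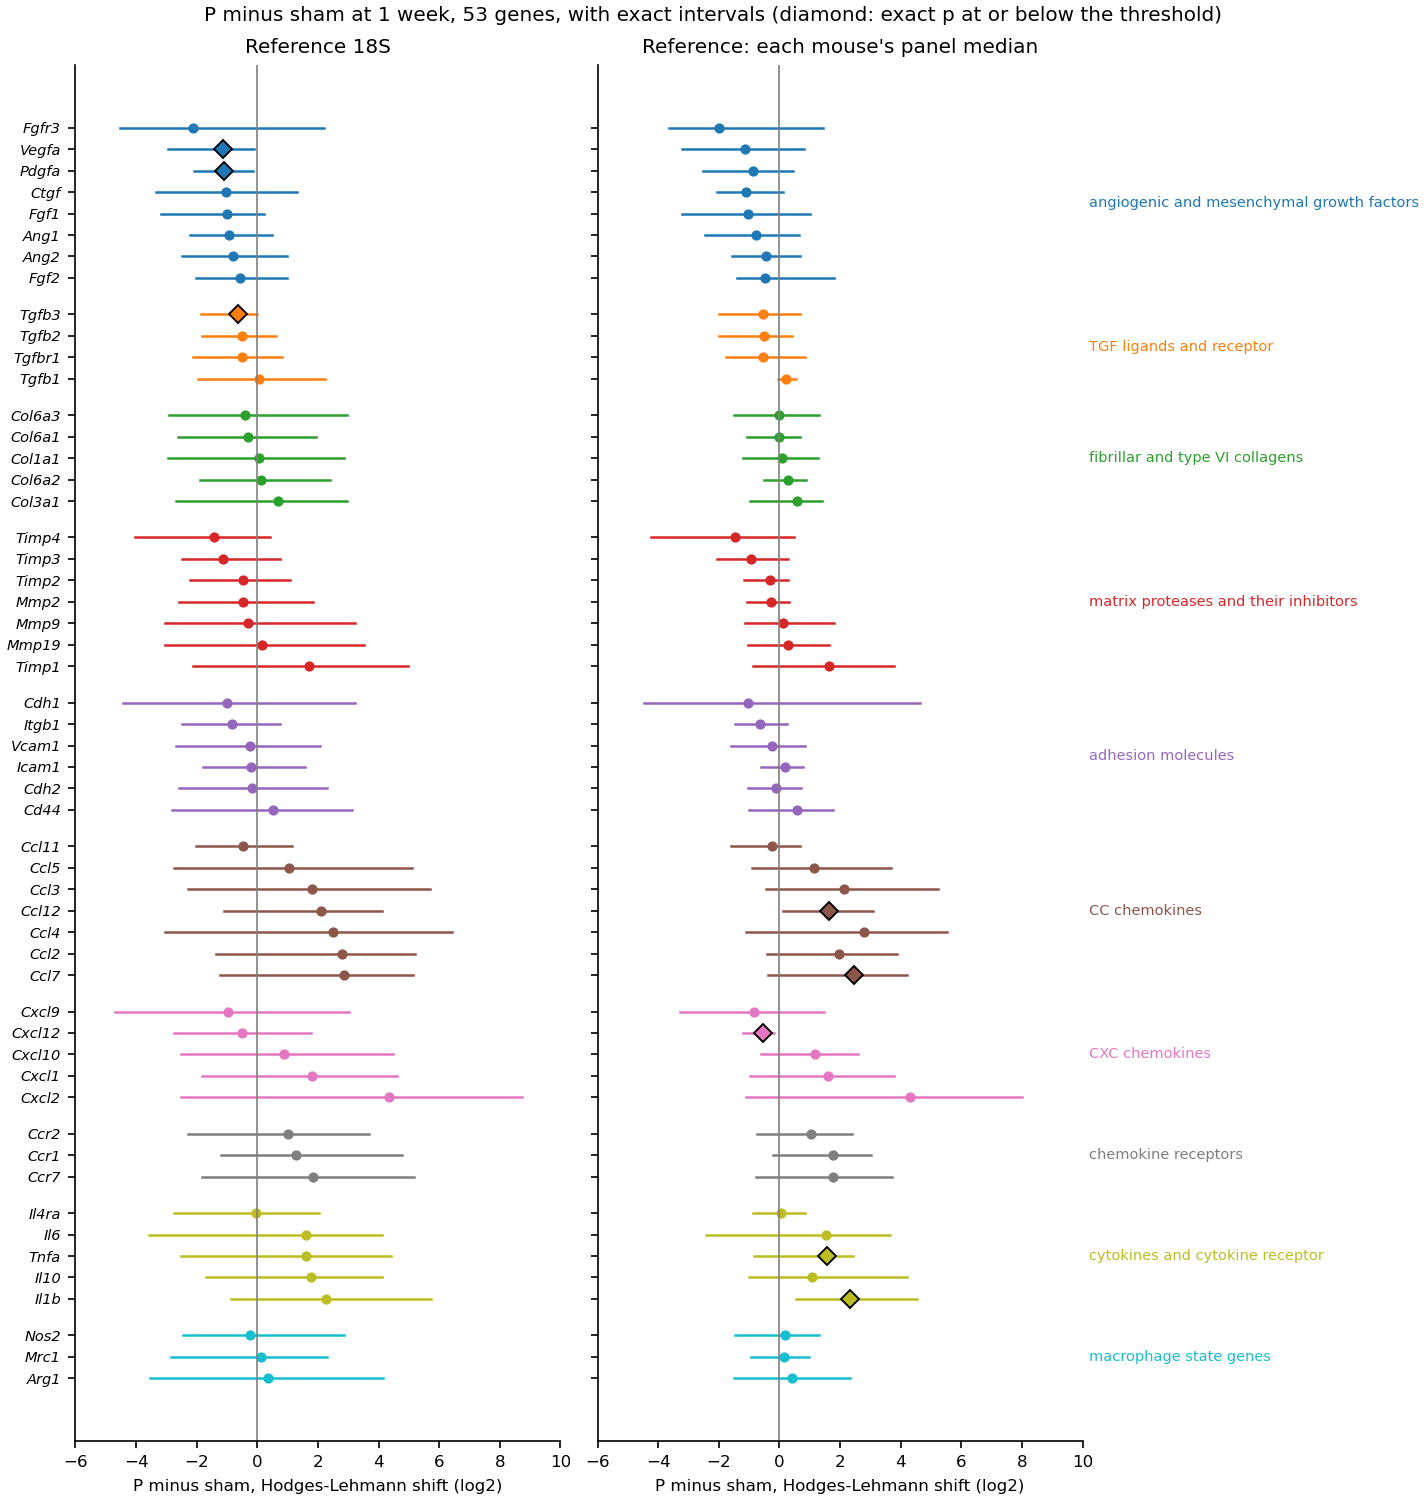
Shift of 53 of the 54 genes between P and sham at 1 week (P minus sham, log2, horizontal axis) with its exact interval as a line, grouped and coloured by gene list. The left panel uses 18S as the reference and the right panel the median of the 54 genes in each mouse, and diamonds mark genes at or below the threshold (3 lower on the left, 4 higher and 1 lower on the right).

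The mice differed from each other far more than the groups did. The mean level over the 54 genes ran from -12.77 in P mouse 2355 to -7.90 in sham mouse 2269, a range of 4.87 (log2), although the 18S Ct varied by only 0.905 cycles. It averaged -10.64 ± 1.66 (SD, n = 6) in P and -10.79 ± 1.61 (SD, n = 7) in sham, and the shift was 0.26 (interval -2.26 to 2.48, exact Mann-Whitney p = 0.731). Sham mouse 2269 was the highest of the sham mice in 42 of the 54 genes, and in 42 genes it also lay above every P mouse. P mice 2355 and 133 were the lowest pair of the P group in 43 genes. By their animal numbers, 2 P and 5 sham mice lay below 1000 and 4 P and 2 sham mice above 2000. Because the level of a whole mouse moves with nearly every gene, each gene was also set against the median of the 54 genes in its own mouse (the panel median), and both references are given below where they differ.

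**Figure D2:**
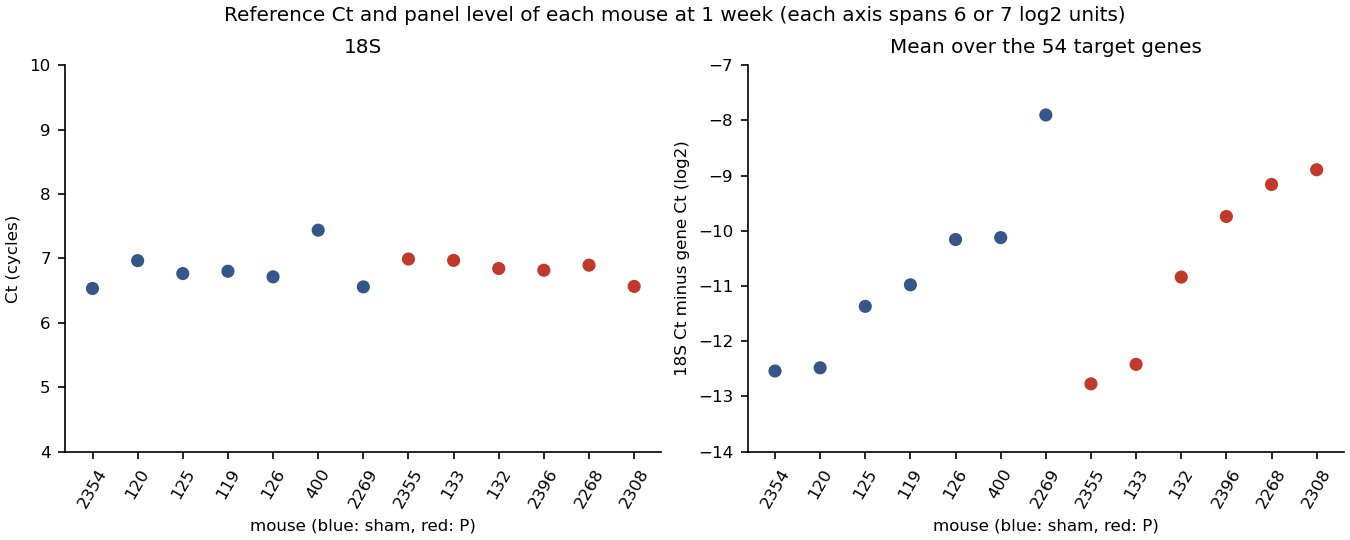
The 18S Ct (left, cycles) and the mean level over the 54 target genes (right, 18S Ct minus gene Ct, log2) of each of the 7 sham mice (blue) and 6 P mice (red), 1 point per mouse, named by animal number. The 18S Ct lay between 6.53 and 7.44, while the panel mean ran from -12.77 to -7.90 in overlapping groups.

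All 8 measured growth factor and receptor genes had a shift below 0, with a median of -1.01 against -0.10 over all 54 genes, and 2 of them were called lower. *Vegfa* levels in P ran from -10.00 to -8.19 with a median of -8.69, and in sham from -8.95 to -4.35 with a median of -7.61. No P mouse reached the sham median, and the highest sham value belonged to mouse 400. The shift was -1.13 (interval -2.95 to -0.11, exact Mann-Whitney p = 0.00816, adjusted p = 0.441). *Vegfa* was still called lower after each of the 13 mice was left out in turn, and it lay lower in P among the animal numbers below 1000 (-1.21, 2 against 5 mice) and above 2000 (-0.95, 4 against 2). Without sham mouse 2269 the shift was -1.09 (exact p = 0.0152). Relative to the panel median it was -1.14, with an exact p of 0.0734.

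*Pdgfa* in P ran from -11.70 to -9.84 with a median of -10.68, and in sham from -10.53 to -8.73 with a median of -9.70. All 6 P mice lay below the sham median, and the groups overlapped between -10.53 and -9.84. The shift was -1.10 (interval -2.08 to -0.14, exact Mann-Whitney p = 0.0350, adjusted p = 0.791). It was -1.52 among the lower and -1.20 among the higher animal numbers, and -0.88 relative to the panel median (exact p = 0.181). *Pdgfa* was no longer called when P mouse 132, 133 or 2355 or sham mouse 2269, 125, 400 or 2354 was left out, and without mouse 2269 the shift was -0.98 (exact p = 0.0649).

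The other 6 growth factor genes did not pass. *Fgfr3*, a fibroblast growth factor receptor of epithelium, had the largest downward shift of the panel, -2.11 (interval -4.54 to 2.18, exact p = 0.138). *Ang1* (angiopoietin 1, which stabilises vessels) had a shift of -0.94 with all 6 P mice below the sham median, and its antagonist *Ang2* one of -0.82. *Fgf1* and *Fgf2*, mitogens of endothelial cells and fibroblasts, had shifts of -0.98 and -0.56, and *Ctgf*, a connective tissue growth factor acting with TGF-β, one of -1.03. Averaged over the 8 genes, P mice ran from -12.03 to -10.04 and sham mice from -11.35 to -8.73, the sham mice with low values being 120 and 2354. Relative to the panel median the 8-gene mean was between 0.76 and 1.26 in 6 of the 7 sham mice and -0.66 in mouse 2269, and between -1.39 and 1.12 in P.

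**Figure D3:**
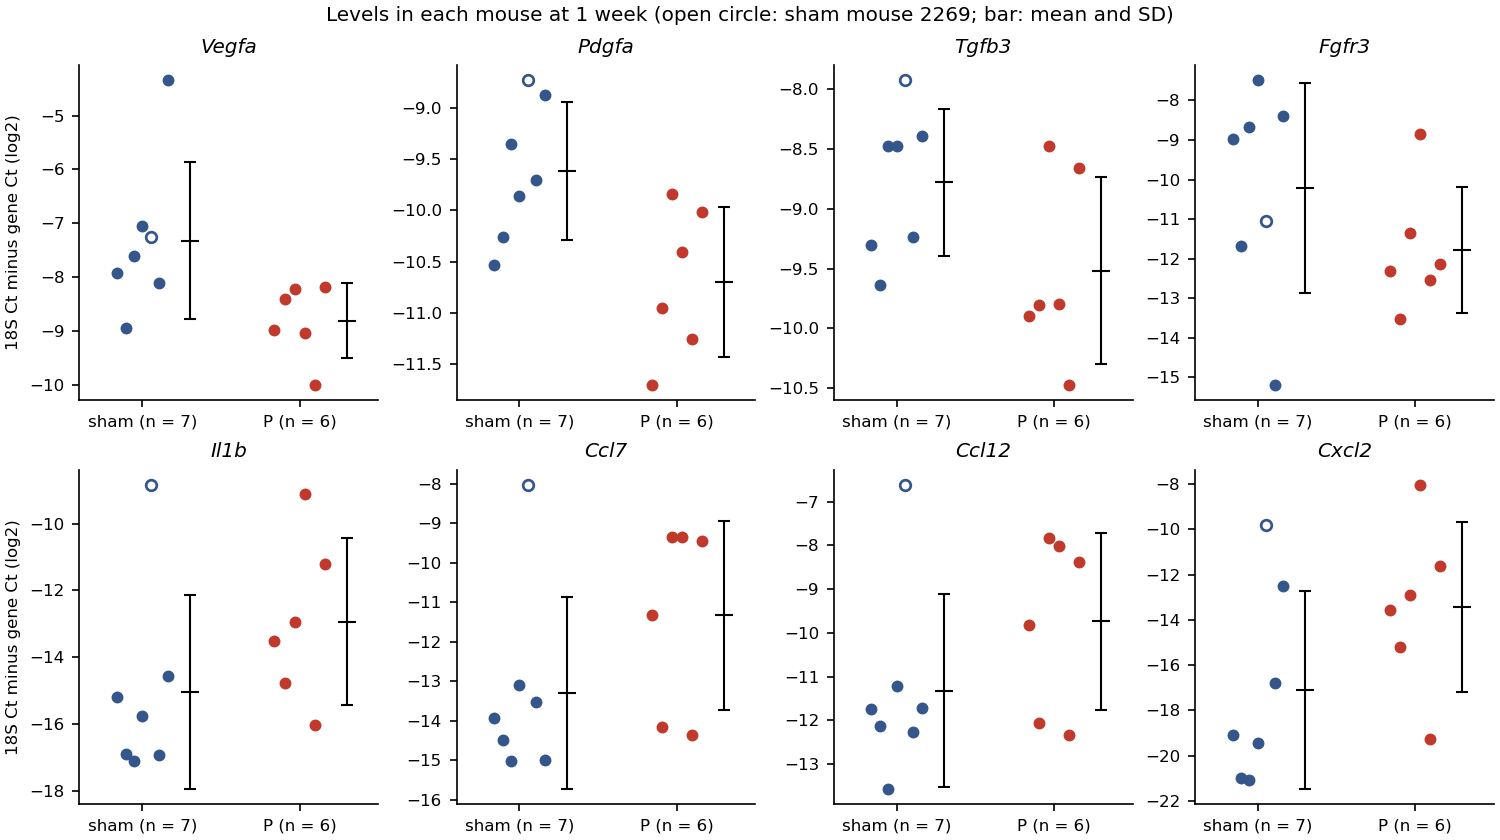
Level of 8 genes in each mouse at 1 week (18S Ct minus gene Ct, log2, vertical axis with its own scale per gene), with 7 sham mice in blue and 6 P mice in red, sham mouse 2269 as an open circle and bars for mean and SD. No P mouse reached the sham median in *Vegfa* (-7.61) or *Pdgfa* (-9.70), while in *Il1b*, *Ccl7* and *Ccl12* sham mouse 2269 lay above all P mice and apart from the other 6 sham mice.

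The TGF-β family, which turns fibroblasts toward matrix production, had a median shift of -0.51 over 4 genes, 3 of them below 0 and 1 called. *Tgfb3* in P ran from -10.47 to -8.47 with a median of -9.80, and in sham from -9.64 to -7.93 with a median of -8.48. Of the P mice, 4 lay below every sham mouse and the other two, 2268 and 2396, within the sham range. The shift was -0.63 (interval -1.87 to 0.0026, exact Mann-Whitney p = 0.0513, adjusted p = 0.791), on the threshold itself. The call was lost when any of 8 mice was left out, P mice 132, 133, 2308 and 2355 and sham mice 2269, 126, 125 and 400, and without mouse 2269 the shift was -0.57 (exact p = 0.0931). The shift was -1.33 and -0.65 within the lower and the higher animal numbers, and -0.53 (exact p = 0.295) against the panel median. *Tgfb2* and the receptor *Tgfbr1* had shifts of -0.51 and -0.50, and *Tgfb1* one of 0.062.

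No collagen gene passed the test in either direction. The 5 measured chains, the fibrillar *Col1a1* and *Col3a1* of scar and dermis and *Col6a1*, *Col6a2* and *Col6a3* of the pericellular matrix, had a median shift of 0.040, with 3 above 0 and none called. *Col3a1*, the chain with the largest shift, ran from -6.81 to -1.26 in P (median -2.81) and from -6.33 to -0.14 in sham (median -4.11). Its shift was 0.69 (interval -2.70 to 2.95, exact p = 0.731, adjusted p = 0.940), and this wide interval held both falls and rises. The 6 genes set out as fibroblast markers (*Col1a1*, *Col3a1*, *Col6a1*, *Col6a2*, *Mmp2* and *Cxcl12*) gave a median shift of -0.13, and all 6 had a Ct in each mouse.

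Among the matrix proteases and their inhibitors, 3 of 8 genes had a shift above 0, with a median of -0.40 and none called. The inhibitors *Timp3* and *Timp4* had the smallest p of the group, 0.181 in the exact test for each (adjusted p = 0.791). *Timp3*, an inhibitor held in the matrix, ran from -8.85 to -6.27 in P (median -7.99) and from -8.94 to -5.48 in sham (median -6.17), with a shift of -1.14 (interval -2.48 to 0.75). All 6 P mice lay below the sham median of *Timp3*, while sham mice 120 and 125 lay within the P range and 2354 below it. *Timp4* had a shift of -1.45 (interval -4.03 to 0.41), with P between -12.92 and -8.16 (median -9.70) and sham between -10.14 and -5.73 (median -8.57). *Timp1*, the inhibitor induced by inflammatory signals, went the other way with a shift of 1.69 (interval -2.11 to 4.98). *Timp2* had a shift of -0.48, the gelatinases *Mmp2* and *Mmp9* shifts of -0.48 and -0.32 and *Mmp19* one of 0.16.

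The 6 adhesion molecules had a median shift of -0.24, 1 of them above 0 and none called. *Itgb1*, the shared β chain of the matrix-binding integrins, had the smallest p: levels ran from -8.68 to -6.10 in P (median -7.48) and from -8.22 to -4.84 in sham (median -6.46), a shift of -0.82 (interval -2.47 to 0.73, exact p = 0.295, adjusted p = 0.873). *Cd44*, the hyaluronan receptor, had a shift of 0.53. *Vcam1* and *Icam1*, which endothelium displays to passing leukocytes, had shifts of -0.26 and -0.22, and *Cdh2* one of -0.17.

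*Cdh1*, the cadherin of epithelium, varied more than most genes and had a shift of -0.99. It ran from -16.16 to -6.89 in sham, a range of 9.27, and from -15.34 to -7.54 in P. With *Fgfr3* it made up the measured epithelial markers, both below 0 and neither called. The shift turned with the animal numbers, from -4.05 to 4.64 for *Cdh1* and from -4.23 to 2.41 for *Fgfr3* between the lower and the higher numbers, so the levels of these epithelial genes differed widely between explants of 1 group. The part of epithelial content in the other results was not tested.

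**Figure D4:**
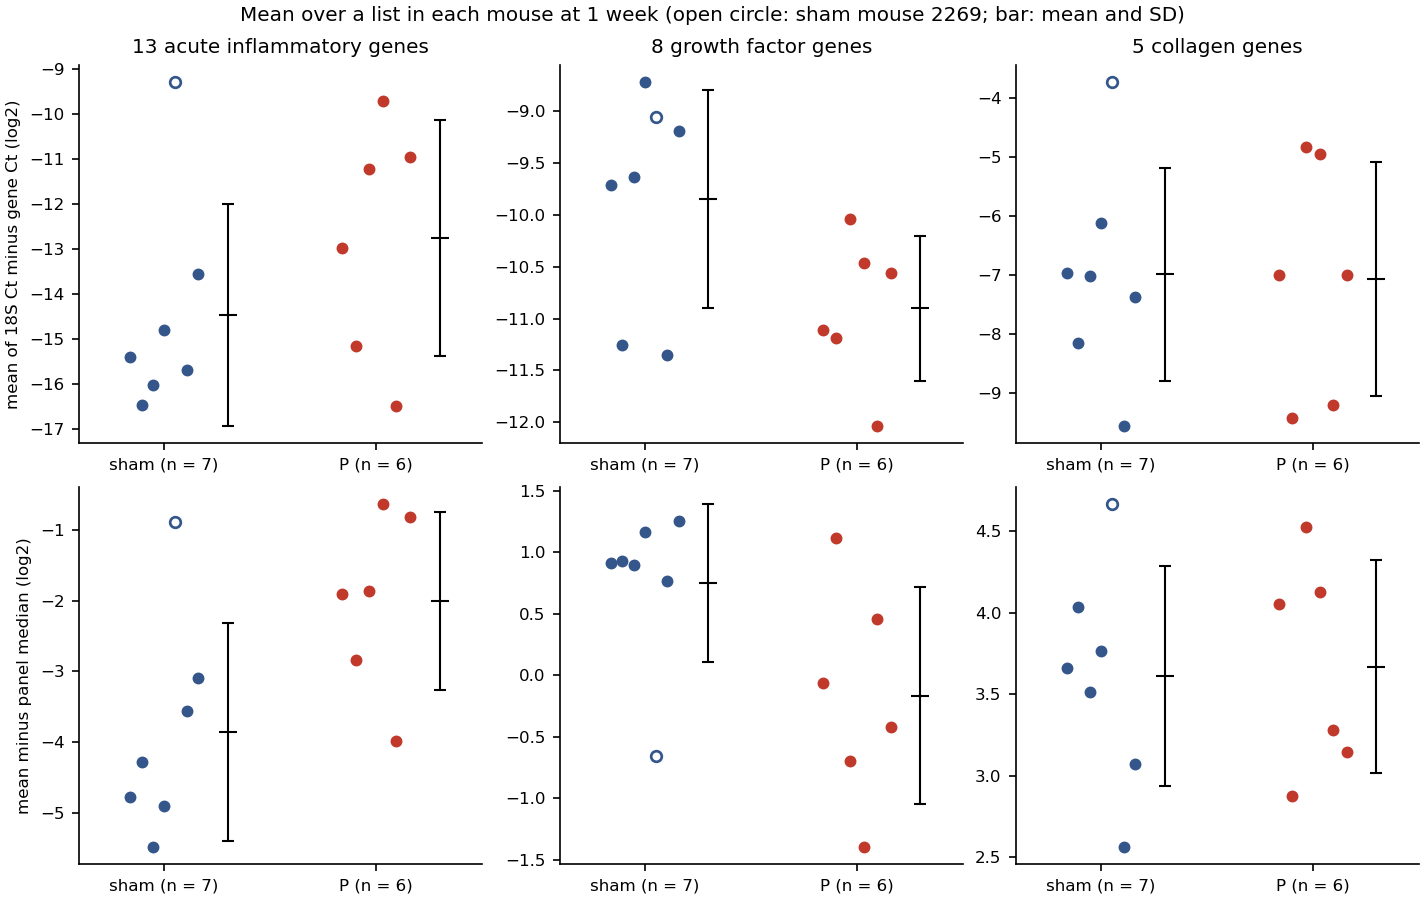
Mean over 13 acute inflammatory, 8 growth factor and 5 collagen genes in each mouse at 1 week, as 18S Ct minus gene Ct (top, log2) and relative to the panel median of the mouse (bottom, log2), with 7 sham mice in blue, 6 P mice in red, sham mouse 2269 open and bars for mean and SD. In the acute inflammatory genes P ran from -16.48 to -9.71 and sham without mouse 2269 from -16.47 to -13.54, and relative to the panel median from -3.99 to -0.63 and from -5.48 to -3.09.

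With 18S as the reference no inflammatory gene passed the test, while most P mice lay above the sham median in each gene of the study's acute inflammatory list (4 to 6 of 6 mice). The study's 13 measured acute inflammatory genes all had a shift above 0, with a median of 1.83. The study chose that list on these samples, which gives its direction no independent weight. Against the panel median 4 of the 13 were called higher, namely *Il1b*, *Ccl12*, *Ccl7* and *Tnfa*, and these were all of the genes called higher (7.41% of 54 tested). *Cxcl12* was the only gene called lower against that reference (1.85%), and none of the 54 had an adjusted p below 0.05 there (smallest 0.421). With each mouse left out in turn, *Il1b* was called in 13 of 13 cases, *Ccl12* in 7, *Ccl7* in 4 and *Tnfa* in 1. *Il1b* alone was left without sham mouse 126, 125, 120, 119 or 400. None of the 4 was called against the panel median when mice were permuted within the animal numbers.

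Sham mouse 2269 was the highest sham mouse in all 13 of these genes and exceeded every P mouse in 9. Without it, 18S as the reference gave 2 genes higher in P, *Il1b* (shift 3.09, exact p = 0.0260) and *Cxcl1* (shift 2.09, exact p = 0.0411), each with an adjusted p of 0.501. These are 3.7% of the 54 genes, and *Vegfa*, the 1 gene then called lower, is 1.85%. The median shift of the 13 genes was then 3.03, and 9 of the 13 were called higher against the panel median, where 20.4% of all 54 genes were (11) and 5.56% were lower (3). Those higher were *Il1b*, *Ccl2*, *Ccl3*, *Ccl7*, *Ccl12*, *Cxcl2*, *Cxcl10*, *Ccr1*, *Ccr2*, *Ccr7* and *Timp1*. Those lower were *Vegfa*, *Timp3* and *Timp4*, and no adjusted p was below 0.05 (smallest 0.0584). Mouse 2269 was singled out for its high values in the 13 acute inflammatory genes themselves. With 18S, leaving out the highest sham value cannot lower the shift of a gene. The larger shifts and counts of these 13 genes without mouse 2269 therefore carry no independent weight. In the P group, mice 2308, 2268 and 2396 were all above the 6 remaining sham mice in 11 of the 13 genes, and mice 2355 and 133 were the lowest pair in all 13. The mean levels of 2308, 2268 and 2396 over the 54 genes (-8.89, -9.16 and -9.74) were also above those 6 sham mice (highest -10.12). Relative to the panel median, which subtracts the level of the whole mouse, their means over the 13 genes were -0.63, -1.86 and -0.81. Those of the 6 sham mice ran from -5.48 to -3.09, and mouse 2269 stood at -0.89. P mice 132, 133 and 2355 stood at -1.91, -2.84 and -3.99. Mice 2308, 2268 and 2396 were picked on these values, so their separation as a set was not tested. Within the lower animal numbers 12 of the 13 shifts were above 0 (median 1.26), and within the higher ones, where mouse 2269 is 1 of 2 sham mice, 4 of 13 were (median -0.23). The median of these genes against the panel median stayed above 0 in both series, at 2.24 and 0.29.

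The CC chemokines recruit monocytes, macrophages and eosinophils, and 6 of the 7 measured had a shift above 0 (median 2.11, none called). *Ccl7*, a monocyte attractant that acts on CCR2, ran from -14.35 to -9.34 in P (median -10.39) and from -15.01 to -8.02 in sham (median -13.92). In P, 4 mice lay above all sham mice except 2269, and 133 and 2355 lay among the sham mice. The shift was 2.87 (interval -1.24 to 5.14, exact p = 0.234, adjusted p = 0.791), and 2.45 (exact p = 0.0513) against the panel median. *Ccl4*, with the same p, had a shift of 2.50 and the widest spread of the P group, from -20.14 in mouse 2355 to -8.73 in mouse 2308.

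The remaining CCR2 ligands *Ccl2* and *Ccl12* had shifts of 2.78 and 2.11. *Ccl12* in P ran from -12.33 to -7.84 (median -9.10) and in sham from -13.57 to -6.62 (median -11.75), with mouse 2269 at the top. It was called higher against the panel median (shift 1.63, interval 0.10 to 3.10, exact p = 0.0350). *Ccl3* and *Ccl5*, which act on CCR1, had shifts of 1.81 and 1.05. *Ccl11*, the eosinophil chemokine eotaxin, was the exception with a shift of -0.48.

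Of the 5 CXC chemokines, 3 had a shift above 0, with a median of 0.88 and none called. *Cxcl2* and *Cxcl1*, which bring neutrophils to a wound and carry the same κB match shown above, had shifts of 4.36 and 1.82 and the smallest p of the group (0.181 in the exact test, adjusted p = 0.791). *Cxcl2* had the largest shift of the 54 genes and the widest interval, -2.51 to 8.74, with P from -19.28 to -8.03 (median -13.25) and sham from -21.06 to -9.81 (median -19.08). In *Cxcl2*, 5 of 6 P mice lay above the sham median. P mouse 2355 lay among the low sham mice, and sham mice 2269 and 400 lay among the high P mice. *Cxcl1* was the 1 gene of the panel in which all 6 P mice exceeded the sham median of -16.44, with P between -15.72 and -11.80 and an interval of -1.83 to 4.59.

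The interferon-inducible *Cxcl10* had a shift of 0.88 and *Cxcl9* one of -0.97. *Cxcl12*, the stromal chemokine that holds CXCR4-bearing cells in tissue, had a shift of -0.49 with 18S. Against the panel median it was lower in P: the P mice lay between 3.37 and 3.97, and 6 of the 7 sham mice between 4.15 and 5.16, with mouse 400 at 3.32. That shift was -0.54 (interval -1.19 to -0.19, exact p = 0.0350), and it kept its sign within both series of animal numbers (-0.58 and -0.99). The call was lost without any of 6 sham mice, 2269, 126, 125, 120, 119 or 2354, and without 2269 the shift was -0.42 (exact p = 0.0649).

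All 3 chemokine receptors had a shift above 0, with a median of 1.27. *Ccr1*, the receptor for *Ccl3* and *Ccl5* on monocytes and neutrophils, had the smallest p, with P from -14.67 to -9.63 (median -11.65), sham from -14.96 to -8.87 (median -14.61) and a shift of 1.27 (interval -1.21 to 4.77, exact p = 0.234, adjusted p = 0.791). *Ccr7*, of dendritic cells and inflammatory macrophages, had a shift of 1.83, and *Ccr2*, of blood monocytes, one of 1.01. The measured markers of macrophages and monocytes, *Mrc1*, *Ccr2*, *Ccr1* and *Arg1*, were all detected in the 13 mice and had a median shift of 0.68, with none called. Averaged over these 4 markers, P mice ran from -13.04 to -8.32 and sham mice from -13.44 to -7.19. Markers of neutrophils other than these receptors and their chemokines are not among the genes used here.

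Of the cytokines, *Il1b*, the interleukin that starts fever and leukocyte entry, came nearest to the threshold. It ran from -16.05 to -9.10 in P (median -13.22) and from -17.11 to -8.83 in sham (median -15.77). Mouse 2269 stood at the top of the sham group, and the other 6 sham mice lay between -17.11 and -14.58, overlapping 2 of the P mice. The shift was 2.26 (interval -0.86 to 5.73, exact p = 0.138, adjusted p = 0.791). Against the panel median it was 2.31 (interval 0.54 to 4.53, exact p = 0.0221), and there *Il1b* was called higher after each mouse in turn was left out. The shift was 1.90 and 0.31 within the lower and the higher animal numbers with 18S, and 2.24 and 0.82 against the panel median. With mice permuted within the animal numbers, *Il1b* was not called against the panel median (rank sum permutation p = 0.0635).

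*Tnfa*, the macrophage cytokine TNF, had a shift of 1.62 with 18S and 1.56 (interval -0.82 to 2.42, exact p = 0.0513) against the panel median. In that second measure 5 of the 6 P mice, between -1.96 and -0.67, lay above all 7 sham mice, between -4.42 and -2.17, and mouse 2355 at -5.25 lay below them. The call was lost without any 1 mouse other than 2355, and without sham mouse 2269 the shift was 1.68 (exact p = 0.0649). *Il6*, which drives the acute phase, had a shift of 1.61. *Il10*, which restrains macrophage activation, had one of 1.77, and *Il4ra*, the receptor chain for IL-4 and IL-13, one of -0.037.

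None of the 3 genes that mark macrophage states passed the test. *Nos2*, of inflammatory macrophages, had a shift of -0.25, and *Arg1* and *Mrc1*, of the reparative state, shifts of 0.36 and 0.13. *Arg1* had the smallest p of these, with P from -14.33 to -8.85 (median -10.77), sham from -14.78 to -8.77 (median -10.72) and an interval of -3.54 to 4.15 (exact p = 0.731, adjusted p = 0.940).

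The difference between P and sham at 1 week was set against that at 6 weeks. There 8 P mice (6 or 7 in the genes without a Ct in some of them) and 6 sham mice (5 in *Il10*) were measured. At 6 weeks 14 genes (25.9%) were lower and 0 higher in P by the same test, with a median shift of -0.83. The interaction of mesh and week in limma called 0 of 54 genes (smallest adjusted p 0.745, 0 with an unadjusted p below 0.05). Its coefficient, the 6 week difference minus the 1 week difference, was below 0 in 50 genes with a median of -1.35, and the median was 0.066 against the panel median. Without P mouse 52 of the 6 week group the median was -0.76, and without sham mouse 2269 it was -1.80. *Vegfa* had a shift of -2.54 at 6 weeks beside -1.13 at 1 week (interaction -1.61, limma adjusted p = 0.745). *Pdgfa*, with 7 P mice at 6 weeks, had shifts of -1.48 and -1.10 (interaction -0.37, limma adjusted p = 0.865). *Il1b*, also with 7 P mice at 6 weeks, had shifts of 2.07 and 2.26.

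P+eMSC at 1 week, the same mesh with human endometrial mesenchymal stem/stromal cells, was compared with the same 7 sham mice, so the 2 comparisons are not independent. With 18S as the reference it gave 0 called genes in either direction (0%), and its median shift over the 54 genes was -0.049. *Vegfa* had a shift of -0.99 there beside -1.13 in P, *Pdgfa* one of -0.64 beside -1.10, and *Tgfb3* one of -0.39 beside -0.63. The 13 acute inflammatory genes had a median shift of 0.73 in P+eMSC and 1.83 in P, and *Ccl7* had shifts of 1.09 and 2.87. The study listed these genes because they were lower in P+eMSC than in P at 1 week in these samples. The smaller shifts of these genes in P+eMSC therefore follow from that choice and carry no independent weight. Of these genes, *Ccl4*, *Cxcl2*, *Ccr7* and *Il1b* had a Ct in 6 of the 7 P+eMSC mice, and the mouse without a Ct was left out. Whether P+eMSC and P differed in these genes was not tested here.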

How the data were processed

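RNA of 13 explants was reverse transcribed, preamplified for 14 cycles and read out by TaqMan qPCR on a Fluidigm microfluidic chip. The authors deposited Ct values, a score without normalization in which 999 stands for no call, and a second table of fold changes against sham with 18S as reference, which holds their own comparison and was not used. There is no read depth in qPCR, and with 1 value per gene and mouse the precision of a single Ct is not known. The highest gene Ct was 27.96, in *Cxcl2* of sham mouse 120, and *Ccl3* had a median Ct of 25.65. Gene symbols were matched to RefSeq (50 as symbols, 4 as synonyms, such as *Tnfa* for *Tnf*).

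Groups came from the labels. Values were 18S Ct minus gene Ct. P and sham were compared by the Mann-Whitney U test in its exact form (two-sided), with genes called at the 0.0513 of the study's methods, with the Hodges-Lehmann shift, its exact interval (96.5% coverage) and Benjamini-Hochberg adjusted p-values over 54 genes. At least 4 values per group were required. The interaction used limma, at an adjusted p below 0.05. Every gene but 1, which is not reported here, was named within its list, with full values for each called gene and, in a list without one, the gene with the smallest p. The members, lists and tests were chosen with earlier results of these data known. Alternatives were the panel median as reference, undetected values set 0.01 below the lowest, a median Ct limit of 25, p or adjusted p below 0.05, limma, a permutation test of the mean, permutation within animal numbers below 1000 or above 2000, mouse 2356 (labelled P at 6 weeks) counted at 1 week and each mouse left out. The κB search covered both strands of the 250 bases before each RefSeq start. The tests were checked on simulated data. Python 3.11.15, numpy 2.4.6, pandas 2.3.3, scipy 1.17.1, matplotlib 3.10.9, R 4.3.3 and limma 3.58.1 were used.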

Additional observations from a re-analysis of the deposited data

Results flagged for a closer look

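Of 110 groups of values looked at (54 genes and the panel mean in P and in sham), 8 held a mouse whose gap to its nearest neighbour was large against the range of its group, and chance flags about 1 group in 20. Sham mouse 2269 accounted for 7 of them, each as the highest sham value: *Timp1* at -6.04, *Ccl12* at -6.62, *Ccl2* at -8.02, *Ccl4* at -10.48, *Ccl7* at -8.02, *Ccr2* at -7.38 and *Il1b* at -8.83 (18S Ct minus gene Ct, log2). The same mouse had the highest panel mean of the 13, -7.90, and an 18S Ct of 6.56. Sham mouse 400 accounted for the other, with *Vegfa* at -4.35 and the highest 18S Ct of the 13, 7.44. Without mouse 400 *Vegfa* was still called lower in P.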

How the results depend on the processing

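No gene was called higher and 3 lower. Against the panel median of each mouse the counts were 4 and 1. An adjusted p below 0.05 gave 0 lower, as did limma, limma with an adjusted p below 0.05 and limma with the animal number series as a covariate. Leaving out each mouse in turn gave 0 to 2 genes higher and 1 to 4 lower, with *Ccl4* higher without P mouse 2355, *Il1b* and *Cxcl1* higher without sham mouse 2269, and 1 gene lower, *Vegfa*, without P mouse 132, 133 or 2355 or sham mouse 2269, 125 or 400. Of the settings added after the data had been seen, the panel median gave 11 higher and 3 lower without mouse 2269 (smallest adjusted p 0.0584), 6 and 0 in limma, 0 and 0 at an adjusted p below 0.05, and 0 and 1 with permutation within the animal numbers. The shift of the panel level was -0.70 within the animal numbers and -0.22 as a median over genes. The cause of these changes was not tested. The other settings kept both counts within 1.5 times. None of the 3 called genes changed sign in any setting, but genes that were not called did, most of all within the animal number series, where 13 of 54 turned (*Col3a1* to -0.84, *Arg1* to -0.59, *Cxcl10* to -0.44, *Ccr2* to -0.23 and *Il6* to -0.081 among them), and 8 turned without mouse 2269. Leaving out each mouse gave 1 to 11 genes higher and 0 to 5 lower against the panel median. The interaction called 0 genes in all settings. No value of the 13 mice was undetected, so that setting changed nothing. *Gapdh* as the reference could not be run, since it is not among the genes with Ct values used here. No paired analysis was possible because the groups share no replicate numbers.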
